A study of Mus musculus with 6 samples.

Results

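Bc1, a short neuronal noncoding RNA, and 8 longer noncoding RNAs known from brain (Meg3, Rian, Mirg, Malat1, Neat1, Miat, Snhg11 and Rmst) were measured by RNA sequencing in mouse hippocampal cultures. The 9 RNAs were taken by gene symbol from a table of 47086 loci, and where a symbol stood at several loci the one with the highest mean level was used. All 9 symbols were found, and Meg3 and Rian each stood at 2 loci. Levels are given in FPKM, in which the fragments assigned to an RNA are divided by its length in kilobases and by the sequencing depth (in units of 1000000 mapped fragments), so that RNAs of different length can be compared.

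The study asked how loss of Fmr1, the gene silenced in fragile X syndrome, alters transcript levels in hippocampal neurons. Primary hippocampal neurons of newborn C57BL/6 mice were grown for 14 days in vitro, and total RNA was sequenced from 3 WT and 3 Fmr1 KO libraries. Mice were described in general as male Fmr1 KO animals and WT littermates. Neither the sex of the pups, nor the litter behind each library, nor the knockout allele was given for these cultures, so p-values measure only the spread between these libraries, which may be technical. Xist, an RNA of female cells, had 59.9, 77.9 and 74.6 FPKM in WT and 53.0, 61.3 and 60.8 FPKM in Fmr1 KO libraries. The cultures can therefore not be taken as male only, and the sex make-up of each library was not tested. No further agent was given to either group.

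Bc1 is transcribed by RNA polymerase III from a retroposed tRNA gene and is carried into dendrites, where it is known as a repressor of translation initiation. Meg3, Rian and Mirg are transcribed from the maternal copy of the imprinted Dlk1-Dio3 domain and host small nucleolar RNAs and microRNAs. Malat1 and Neat1 are neighbouring nuclear RNAs, of nuclear speckles and of paraspeckles respectively, and Miat is a nuclear RNA of neurons that carries repeats of a splicing branch point sequence.

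The Bc1 locus lay at chr7:144914470-144914623 (GRCm38, plus strand) and held 154 bases, 14 fewer than the only GENCODE vM21 transcript, which has 1 exon and overlaps no other gene. Its sequence is shown because this short RNA carried most of the FPKM of every library. Capitals mark, in order, a match to the A box, a match to the B box and the longest run of A. The boxes are the 2 internal promoter elements of tRNA-type genes. They were searched here as consensus letters on the strand shown, and the matches do not overlap.
Bc1: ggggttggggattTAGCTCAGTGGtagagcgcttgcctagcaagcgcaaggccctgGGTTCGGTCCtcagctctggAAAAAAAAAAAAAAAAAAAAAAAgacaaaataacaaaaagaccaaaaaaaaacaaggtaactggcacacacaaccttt
The A box match began at base 14 and the B box match at base 57, and the run of A covered bases 77 to 99. The background was the leading 154 bases of the longest GENCODE transcript of 49360 genes, Bc1 included, searched on either strand. Of these windows, 0.332% held the A box letters and 0.0243% the B box letters. Only 1 window held both, that of Bc1 itself. The letters fit Bc1 and may be narrower than the general elements. These shares therefore say only how rare the letters are and are no test of the promoter elements. A occupied 14.5% of the bases before the run and 69.2% from the run to the end.

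The part of Bc1 before the run of A is repeated elsewhere in the transcriptome. All 47 stretches of 30 bases from that part were found without mismatch in GENCODE transcripts of other genes, 20 genes in all. None of the 26 stretches after the run of A was found in another gene. How fragments with several matches were assigned is not given in the sources used here, so the level of Bc1 is uncertain in this respect.

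Miat is shown because copies of TACTAAC, the branch point letters, set its sequence apart from the other 8 RNAs. A stretch of 81 bases on its last exon (exon 7 of Miat-201, GENCODE vM21, chr5:112216742-112216822, minus strand) has TACTAAC in capitals.
Miat: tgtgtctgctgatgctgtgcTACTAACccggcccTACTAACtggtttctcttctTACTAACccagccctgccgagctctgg
TACTAAC occurred 6 times in the sense strand of Miat-201, which has 8758 bases, and 3 of these copies stand in the stretch above. Windows of 300 bases over the longest transcript of 55341 genes held TACTAAC in 0.739% of cases, and 6 of 328464 windows held at least 3 copies. Of the longest transcripts of the other 8 RNAs, Neat1 held 1 copy and the rest none.

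Mirg is a host of microRNAs, and the rows of Mir412, Mir369 and Mir410 carried the locus and the value of Mirg, so they are no measurement of these microRNAs. Their mature products are shown to make clear what the table did not measure. RefSeq (GRCm38.p6) places 10 hairpins with 19 mature microRNAs inside the Mirg span. The seed, bases 2 to 8, is in capitals for the 6 products of the 3 shared rows and for the only 2 products of the span that share a seed.
mmu-miR-412-5p: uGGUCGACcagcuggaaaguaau
mmu-miR-412-3p: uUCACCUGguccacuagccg
mmu-miR-369-5p: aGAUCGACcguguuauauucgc
mmu-miR-369-3p: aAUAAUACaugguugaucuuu
mmu-miR-410-5p: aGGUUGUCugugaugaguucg
mmu-miR-410-3p: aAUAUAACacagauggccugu
mmu-miR-453: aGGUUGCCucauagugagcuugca
mmu-miR-496a-5p: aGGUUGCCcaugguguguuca
The products of miR-410 lie at chr12:109743729-109743749 and chr12:109743764-109743784, on the plus strand as Mirg itself. The rows of Mir453, Mir154, Mir496a, Mir377, Mir541, Mir409 and Mir3072, which had loci of their own within the Mirg span, were listed at 0 in all libraries.

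Neuronal markers were present in every library, and markers of other cells were present beside them. The summed FPKM of 6 pan-neuronal genes lay between 1237 and 1390, that of 8 astrocyte genes between 1706 and 2014, and that of 8 oligodendrocyte lineage genes between 346 and 439. The 10 microglia genes summed to 7.23 to 9.49 in WT and 1.49 to 3.23 in Fmr1 KO libraries. Aif1 was listed at 0, and all 4 microglia genes tested had lower levels in Fmr1 KO before adjustment (unadjusted p below 0.05, beside 7.77% of all loci tested), and Lyz2 fell also after it (limma adjusted p = 0.0359). All 8 proliferation genes had log2 changes above 0, beside 51.7% of all loci, and 5 of them an unadjusted p below 0.05, beside 6.99% of all loci in that direction, with sums of 56.1 to 60.7 in WT and 67.8 to 70.1 in Fmr1 KO libraries. The part of these differences in the values of the 9 RNAs was not tested. Fewer cells of a type and less RNA per cell cannot be told apart in such bulk samples.

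Fmr1 itself did not separate the groups. It had 18.99, 19.5 and 19.7 FPKM in WT and 23.1, 21.8 and 18.5 FPKM in those labelled Fmr1 KO. Gene-level FPKM therefore gave no check of the labels, and every direction given here is that of libraries labelled Fmr1 KO against libraries labelled WT.

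Bc1 was the locus with the highest FPKM in all 6 libraries. It had 1390000, 1490000 and 1520000 FPKM in WT replicates 1, 2 and 3 and 1570000, 1800000 and 1820000 FPKM in Fmr1 KO replicates 1, 2 and 3. All 3 Fmr1 KO libraries lay above all 3 WT libraries, as they did at 10.8% of the 13195 loci tested. The deposited Bc1 values were multiples of 10000 FPKM, a rounding of at most 0.36% of a value. FPKM above 1000000 are possible because the unit divides by length in kilobases. If the whole length of 154 bases was used in that division, Bc1 held 21.4 to 28.03% of the mapped fragments, but the length the authors' software applied is not given.

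The next loci lay far below Bc1. The mitochondrial mRNA mt-Co1 followed with a mean of 19865 FPKM, which the mean of Bc1 exceeded 80.5 times. Its values were 18353, 17556 and 18306 FPKM in WT and 23317, 21732 and 19925 FPKM in Fmr1 KO libraries, so that this locus too had all Fmr1 KO libraries on top. Of 697 other loci spanning at most 200 bases, 693 were listed at 0 in every library and the other 4 in at least 1 library. Bc1 was thus the only locus of this size with a value above 0 in all 6 libraries.

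Other small structured RNAs, mostly transcribed by RNA polymerase III, were low or listed at 0. Rn7sk, the RNA of the complex that holds back transcription elongation, ranged from 3.46 to 12.2 FPKM and Rmrp, of RNase MRP, from 0 to 5.49 FPKM. Rn7s1, Rn7s2, Rny1, Rny3 and Vaultrc5 were at 0 throughout. Of the 12 RNAs listed, Bc1 included, 4 were tested and none had a p below 0.05 before or after adjustment. Bc1, Rmrp and Rpph1 had log2 changes above 0 (median of the 4 tested 0.25), beside 51.7% of all loci. The mean FPKM of Rmrp and Rpph1 was nevertheless lower in Fmr1 KO (2.16 against 2.78 and 0.998 against 1.70 in WT). Both were at 0 in WT replicate 1, which pulls the WT mean down on the log2(FPKM + 0.1) scale, so their sign is no sign of higher levels. Because such RNAs are used by every cell, a listed 0 for a short RNA in this table does not show its absence.

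The share of Bc1 depended on the loci it was set against. Bc1 made up 73.7 to 78.3% of the whole FPKM sum in WT and 77.0 to 80.6% in Fmr1 KO, and the groups overlapped (exact permutation test, two-sided, p = 0.3; the smallest p that 3 against 3 allows is 0.1). Against the sum of all other loci it was 3.36, 3.62 and 2.81 times in WT and 3.34, 4.15 and 3.77 times in Fmr1 KO libraries. The means were 3.26 ± 0.413 and 3.75 ± 0.407 (SD, n = 3), a ratio of 1.15 (exact permutation p = 0.3).

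That sum of other loci moved with 3 mitochondrial tRNA loci. mt-Tp stood at 71637 and mt-Ta at 59999 FPKM in WT replicate 3 and at 0 elsewhere. mt-Tl1 stood at 23062 and 45128 FPKM in Fmr1 KO replicates 1 and 3 and at 0 elsewhere. All mitochondrial loci with a tRNA symbol among their symbols took 27.7% of the sum without Bc1 in WT replicate 3. In the other libraries they took 3.87 to 13.7%. Loci of any length were counted, so these shares may include other mitochondrial genes and are not those of tRNAs alone. A restricted sum was therefore also used, over loci of at least 1 FPKM without the small structured RNAs and without mitochondrial genes. It ranged only from 332413 to 350106 FPKM. Against it, Bc1 was 4.08, 4.38 and 4.57 times in WT and 4.54, 5.30 and 5.20 times in Fmr1 KO libraries, with means of 4.34 ± 0.247 and 5.01 ± 0.414 and overlapping groups (exact permutation p = 0.2).

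**Figure D1:**
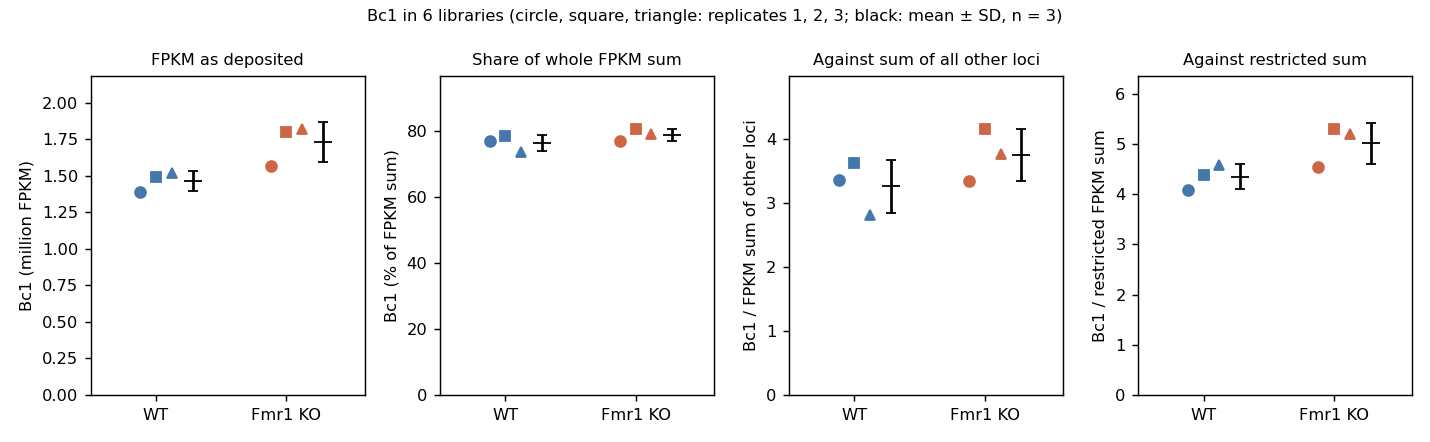
Bc1 in each library as deposited FPKM (in units of 1000000), as percent of the whole FPKM sum, and as a multiple of the FPKM sum of all other loci and of the restricted sum; blue is WT, orange Fmr1 KO, symbols are replicates and black bars mean ± SD (n = 3). Fmr1 KO libraries sit above WT libraries in FPKM (1.57 to 1.82 against 1.39 to 1.52 in those units), whereas the groups overlap on the other 3 scales.

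The difference of Bc1 between genotypes did not pass the test across all loci. The log2 change, on the log2(FPKM + 0.1) scale, was 0.24 with a standard error of 0.28 in limma (adjusted p = 0.749, range over 14 alternatives 0.262 to 1), and the means were 1466670 ± 68069 and 1730000 ± 138924 FPKM (SD, n = 3), 1.18-fold higher in Fmr1 KO. Of the loci tested, 5.08% had a log2 change at least as high. The error came mainly from limma's trend of spread against level, which gave a locus of this level an SD of 0.46, while the SD of Bc1 itself within groups was 0.097 (log2). Without the trend the unadjusted p of Bc1 was 0.0203 and the adjusted p 0.276. The exact permutation test on FPKM gave 0.1, the smallest p it allows.

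**Figure D2:**
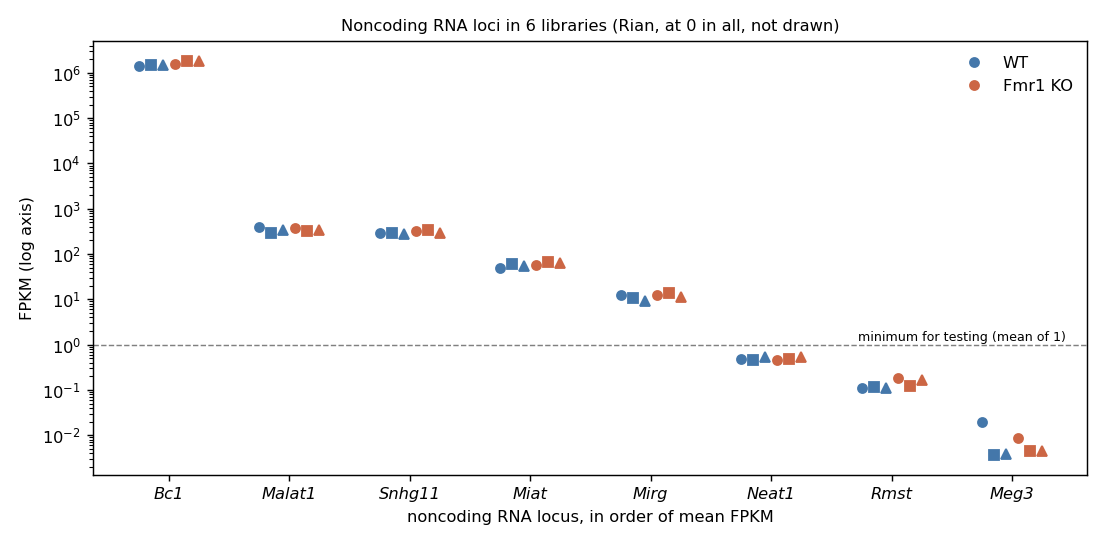
FPKM of 8 of the 9 RNAs in each library on a log axis, in order of mean level; blue is WT, orange Fmr1 KO, and circle, square and triangle are replicates 1, 2 and 3. Bc1 lies above 1000000 FPKM, Malat1 and Snhg11 near 300, and Neat1, Rmst and Meg3 below the mean of 1 FPKM that the test across loci required.

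The other 8 RNAs differed widely in level, and not all were abundant. Malat1, with a mean of 346 FPKM, ranked 114th of all loci, Snhg11 (298 FPKM) 143rd, Miat (58.4 FPKM) 1114th and Mirg (11.7 FPKM) 5954th. Neat1 (0.489 FPKM), Rmst (0.134 FPKM) and Meg3 (0.0074 FPKM) were low, and Rian was listed at 0. In this table the description as an abundant RNA thus held for Bc1, Malat1, Snhg11 and Miat, less so for Mirg, and not for the other 4. Neighbours in this order were separated in all libraries except Malat1 and Snhg11, whose ranges overlapped although Malat1 was the higher in 5 of 6 libraries.

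Malat1, a nuclear speckle RNA (chr19:5795690-5802671, minus strand), had 398, 298 and 348 FPKM in WT and 371, 320 and 341 FPKM in Fmr1 KO libraries. The highest and the lowest library were both WT, and the Fmr1 KO libraries lay between them. The log2 change was -0.0095 with a 95% interval of -0.24 to 0.22 (limma, adjusted p = 0.975, range over 14 alternatives 0.572 to 1). As a share of the FPKM sum without Bc1 it took 963, 724 and 642 ppm (parts in 1000000) in WT and 789, 738 and 706 ppm in Fmr1 KO libraries.

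Neat1, the scaffold RNA of paraspeckles, lies 22036 bases from Malat1 on the same strand (chr19:5824708-5845478). It had 0.476, 0.453 and 0.540 FPKM in WT and 0.454, 0.475 and 0.537 FPKM in Fmr1 KO libraries, so the groups covered nearly the same range (exact permutation p = 0.8). Malat1 exceeded Neat1 by 635 to 837 times within a library, with overlapping groups. As a share of the sum without Bc1, Neat1 had means of 1.08 ± 0.0775 and 1.06 ± 0.0801 ppm (SD, n = 3; exact permutation p = 0.6). The locus nearest to Neat1 on the other side, Frmd8 at 178 bases, had 6.48 FPKM, above Neat1 itself.

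Snhg11, a small nucleolar RNA host gene of neurons (chr2:158375638-158386145, plus strand), had 286, 286 and 276 FPKM in WT and 321, 333 and 285 FPKM in Fmr1 KO libraries. Fmr1 KO replicates 1 and 2 lay above all WT libraries, whereas replicate 3 fell within their range. The log2 change was 0.15 (SE 0.062, limma adjusted p = 0.326, range over 14 alternatives 0.163 to 1), and its unadjusted p of 0.0447 was below 0.05 no longer with libraries centred on their median (0.0515), with no trend (0.0872) or with FPKM scaled to the sum without Bc1 (0.501). As a share of the sum without Bc1, it took 691, 694 and 510 ppm in WT and 684, 769 and 589 ppm in Fmr1 KO libraries (exact permutation p = 0.7). GENCODE vM21 lists Snhg11 as protein coding, with 1 protein coding transcript among its 5, so its place among noncoding RNAs depends on the annotation.

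Miat, whose TACTAAC copies are shown above (chr5:112213228-112228948, minus strand), had 49.6, 59.3 and 54.3 FPKM in WT and 56.5, 66.5 and 63.9 FPKM in Fmr1 KO libraries. Only Fmr1 KO replicate 1 fell within the WT range. The log2 change was 0.20 (SE 0.08, limma adjusted p = 0.311, range over 14 alternatives 0.0828 to 1), with an unadjusted p of 0.0393, which was 0.0762 with no trend and 0.354 with FPKM scaled to the sum without Bc1. Its share of the sum without Bc1 was 120, 144 and 100 ppm in WT and 120, 153 and 132 ppm in Fmr1 KO libraries (exact permutation p = 0.4).

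Mirg, the microRNA host at the distal end of the Dlk1-Dio3 noncoding stretch (chr12:109734981-109749458, plus strand), had 12.5, 10.8 and 9.21 FPKM in WT and 12.8, 13.6 and 11.4 FPKM in Fmr1 KO libraries. The groups overlapped through WT replicate 1 and Fmr1 KO replicate 3. The log2 change was 0.22 (SE 0.11, limma adjusted p = 0.409, range over 14 alternatives 0.183 to 1), and it was 0.11 without WT replicate 3. Its share of the sum without Bc1 was 30.2, 26.3 and 17.01 ppm in WT and 27.2, 31.3 and 23.6 ppm in Fmr1 KO libraries (exact permutation p = 0.6).

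None of the 5 RNAs tested was called at an adjusted p below 0.05, where limma called 0.265% of all loci. Miat and Snhg11 were the only 2 with an unadjusted p below 0.05, both higher in Fmr1 KO, as were 6.99% of all loci tested. A log2 change above 0 was found for 4 of the 5, all but Malat1, beside 51.7% of all loci. With FPKM scaled to the sum without Bc1 it was again these 4, beside 40.8% of all loci. The median change of all loci was 0.005. Bc1 was the only one of the 5 whose groups did not overlap, and 21.1% of all loci had groups that did not overlap in either direction, so that 1 of 5 is near the background. The other 4 RNAs lay below the FPKM minimum and were not part of this fit.

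**Figure D3:**
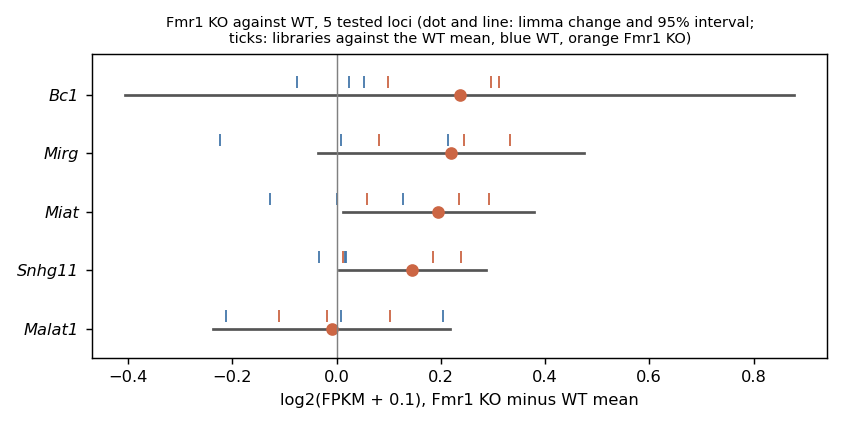
Log2 change of the 5 tested RNAs, Fmr1 KO minus WT, as dots with 95% intervals from limma, and each library's distance from the WT mean as ticks (blue WT, orange Fmr1 KO). The interval of Bc1 runs from -0.41 to 0.88 although its 6 ticks lie close together, and the ticks of both groups interleave for Malat1.

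Rmst, a noncoding RNA known from neuronal differentiation (chr10:92081746-92165178, minus strand), was low but had all Fmr1 KO libraries above the WT libraries. So did 10.8% of the loci tested, among which Rmst was not, and no share was computed for loci of its level. It had 0.113, 0.118 and 0.108 FPKM in WT and 0.180, 0.123 and 0.162 FPKM in Fmr1 KO libraries, with means of 0.113 ± 0.00513 and 0.155 ± 0.0292 (SD, n = 3; exact permutation p = 0.1). The gap between the highest WT and the lowest Fmr1 KO library was small, 0.118 against 0.123 FPKM. As a share of the sum without Bc1 the groups overlapped, with means of 0.253 ± 0.0469 and 0.334 ± 0.0498 ppm (exact permutation p = 0.2), and against the restricted sum they did not (exact permutation p = 0.1). Mir1251, which lies within the Rmst span, was listed at 0.

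Meg3 and Rian, by reputation among the strongest noncoding RNAs of neurons, were near or at 0 in the table. Meg3 on chromosome 12 (chr12:109540996-109571729, plus strand) had 0.0195, 0.00364 and 0.00388 FPKM in WT and 0.00865, 0.00443 and 0.00437 FPKM in Fmr1 KO libraries. Rian (chr12:109603945-109661716, plus strand) was listed at 0 in all 6. As a share of the sum without Bc1, Meg3 took 0.00717 to 0.0470 ppm, with overlapping groups (exact permutation p = 1).

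In the 4 libraries where both Meg3 loci were above 0, the larger value was a whole multiple of the smaller (tolerance 0.001), as single fragments would give. Over its 2 loci the values came to 5, 4 and 2 such steps in WT replicates 1, 2 and 3 and to 3 in Fmr1 KO replicate 1. Fmr1 KO replicates 2 and 3 each had a single value above 0, which counts as 1 step by construction. A step was worth between 0.00364 and 0.00486 FPKM. With so few steps, no difference between genotypes was detectable for Meg3.

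Both genes also stood on a scaffold outside the chromosomes that carries a second copy of the Meg3 to Rian stretch. Rian was at 0 there too, and Meg3 reached at most 0.0109 FPKM. All 33 symbols on that scaffold had a highest locus below 0.1 FPKM. Among 311 symbols listed both on a chromosome and on a scaffold of the same type, 92.0% had a highest locus below 0.1 FPKM, against 58.3% of 43549 symbols on chromosomes only. Sf1, a splicing factor used by every cell, was one of those 311 and was listed at 0 at both of its loci. A listed 0 for Rian therefore does not show absence of the RNA, and the cause of these zeros was not tested.

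Mirg was the exception within the Dlk1-Dio3 noncoding stretch. Of 64 loci from Meg3 to Mirg, 27 had a symbol on the scaffold as well, Meg3 and Rian among them, and Mirg was not one of them. Meg3 and Mirg were the only 2 of the 64 loci with a value above 0, and 54 of the 64 were microRNA loci. All loci other than Mirg that had no symbol on the scaffold were thus at 0 too, so this trait does not set Mirg apart from them. Over the whole table, 693 of 697 loci spanning at most 200 bases (Bc1 aside) were also at 0 in every library. Of 8 genes listed for the domain 2 were tested (Mirg and Begain), neither had a p below 0.05 before or after adjustment, and the median log2 change was 0.081. Dlk1, the protein coding gene at the other end, was at 0 on both sequences, and Begain, the nearest tested gene before Meg3, had 33.7 FPKM.

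**Figure D4:**
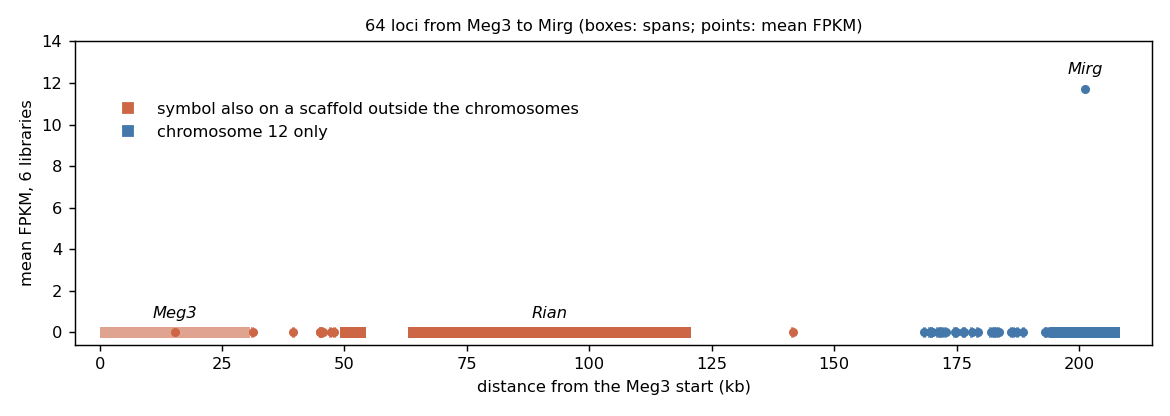
The 64 loci from Meg3 to Mirg by distance from the Meg3 start (kb), with their spans as boxes on the zero line and their mean FPKM over 6 libraries as points; orange loci have a symbol on a scaffold outside the chromosomes as well, blue loci do not. Mirg stands at 11.7 FPKM, and every other locus lies at or near 0.

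None of the nearest tested loci beside these RNAs was called at an adjusted p below 0.05. Oraov1 began 471 bases after Bc1 and had a mean of 5.90 FPKM, with a log2 change of -0.27 (SE 0.092, limma adjusted p = 0.244). Fadd, 332033 bases before Bc1, had a mean of 1.199 FPKM and a log2 change of 0.32 (SE 0.23, limma adjusted p = 0.564). Snhg17, another small nucleolar RNA host, ended 14115 bases before Snhg11 with a mean of 3.52 FPKM and a log2 change of 0.12, and Ralgapb followed at 18.7 FPKM with 0.093. Tpst2, the nearest tested locus after Miat, had 8.06 FPKM, and Nedd1, after Rmst, 1.85 FPKM.

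The tested loci whose pattern over the 6 libraries was closest to that of Bc1 were Gm9844, Phactr2, Megf10, Gigyf1 and Traf3. Closeness was the root mean square difference of log2(FPKM + 0.1) after each locus was centred on its own mean, and it was 0.0147 for Gm9844 and 0.0323 for Traf3, beside a median of 0.173 for all tested loci. Gm9844 ranked the 6 libraries in the same order as Bc1. The nearest loci were Inhba for Mirg (0.0341), Gm12481 for Malat1 (0.027) and Guf1 for Snhg11 (0.0245). These values describe 6 libraries and say nothing of shared control.

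Transcripts of proteins known to bind Bc1 or to act with it were tested for 14 of 15 listed symbols, Fmr1 among them, and none was called after adjustment. The symbol not found, Ro60, is another name of Trove2, which was among the 14. No protein was measured. Of these 14, 4 had an unadjusted p below 0.05, all higher in Fmr1 KO, beside 6.99% of all loci. The median log2 change was 0.054 and 11 were above 0 (51.7% of all loci), which became 7 with FPKM scaled to the sum without Bc1 (40.8% of all loci). Pabpc1, the poly(A)-binding protein that Bc1 binds through its A-rich part, had 150, 150 and 148 FPKM in WT and 167, 165 and 163 FPKM in Fmr1 KO libraries. All Fmr1 KO libraries of Pabpc1 lay above all WT libraries, as at 10.8% of the loci tested (log2 change 0.14, limma adjusted p = 0.171). Hnrnpa2b1 (limma adjusted p = 0.207) and Ybx1 (0.191), which bind many transported RNAs, had log2 changes of 0.14 and 0.18.

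The machinery of RNA polymerase III, which transcribes Bc1, had a median log2 change close to that of all loci. All 22 of its genes were tested, none had a p below 0.05 before or after adjustment, and 13 had log2 changes above 0, with a median of 0.011 (10 and -0.020 with FPKM scaled to the sum without Bc1). Maf1, the repressor of this polymerase, had 27.1 to 30.4 FPKM in WT and 27.7 to 29.8 FPKM in Fmr1 KO libraries. The changes ran from -0.071 for Brf2 to 0.19 for Gtf3c6.

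The next list held genes of 17 proteins of paraspeckles and nuclear speckles, nuclear bodies known for Neat1 and Malat1 (with a few splicing factors linked to Miat). Of these genes, 15 were tested by transcript level and none was called after adjustment. All 15 had log2 changes above 0, with a median of 0.14 (14 of 15 and 0.105 with FPKM scaled to the sum without Bc1), and 7 had an unadjusted p below 0.05. Of all loci, 51.7% were above 0 (40.8% when scaled) and 6.99% were higher at an unadjusted p below 0.05. Celf3, a splicing regulator reported to bind Miat, had 42.5, 40.1 and 38.5 FPKM in WT and 48.9, 49.9 and 47.3 FPKM in Fmr1 KO libraries (log2 change 0.27, limma adjusted p = 0.0766). Son and Srrm2, the core of speckles, had log2 changes of 0.17 each (adjusted p = 0.217 and 0.26). Srsf3 was at 0.0081, the lowest, and Qk, the most abundant of the list, at 0.063.

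Of 21 small nucleolar RNA host genes, the class of Snhg11, 18 were tested and none was called after adjustment. Their median log2 change was 0.087 and 12 were above 0, beside 51.7% of all loci. An unadjusted p below 0.05 was found for 6, all higher in Fmr1 KO, beside 6.99% of all loci, and Snhg11 itself was among these 6. Snhg6 had 84.5, 76.5 and 78.0 FPKM in WT and 111, 88.5 and 90.3 FPKM in Fmr1 KO libraries (log2 change 0.27, limma adjusted p = 0.216). All its Fmr1 KO libraries lay above all WT libraries, as at 10.8% of the loci tested. Snhg1 had the highest log2 change, 0.42, and Snhg15 the lowest, -0.21, and in both the groups overlapped.

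The list of 32 further brain noncoding RNAs also holds Malat1, Neat1, Miat and Rmst, and it shares Epb41l4aos and Peg13 with other lists given here. Of these RNAs, 19 were tested and none was called after adjustment. An unadjusted p below 0.05 was found for 9 of them, 6 higher and 3 lower in Fmr1 KO, beside 14.8% of all loci in either direction, and the median log2 change was 0.11. Tunar, a noncoding RNA of neural differentiation, had 9.82, 10.7 and 8.77 FPKM in WT and 7.50, 6.55 and 6.999 FPKM in Fmr1 KO libraries. This was the lowest log2 change of the list, -0.47 (limma adjusted p = 0.0753), and all Fmr1 KO libraries lay below all WT libraries, as they did at 10.3% of the loci tested. Gm42418 had 444 to 530 FPKM in WT and 524 to 591 FPKM in Fmr1 KO libraries, and 1700020I14Rik had the highest log2 change, 0.34, with overlapping groups. The locus listed for Gm42418 spanned chr17:39846354-39898385, and whether ribosomal RNA fragments fall in it was not checked.

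Among 9 other imprinted noncoding RNAs, 5 were tested and none had a p below 0.05 before or after adjustment. The locus listed for Peg13, the RNA of the Kcnk9 imprinted domain, had 26.2, 28.7 and 28.6 FPKM in WT libraries. In Fmr1 KO libraries it had 29.7, 30.2 and 30.9 FPKM (log2 change 0.12, limma adjusted p = 0.347). All Fmr1 KO libraries thus lay above all WT libraries, as they did at 10.8% of the loci tested. This locus spanned chr15:72589620-73061244, and whether other genes lie in it was not checked, so the value may not be that of Peg13 alone. The locus listed for Snhg14, the host of the Snord115 and Snord116 clusters, ranged from 18.8 to 20.4 FPKM over all libraries. It spanned only chr7:59969577-59974431, and whether this covers the whole host transcript was not checked. Peg3os had the highest log2 change, 2.36, but it ran from effectively 0 to 8.10 FPKM and its groups overlapped.

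**Figure D5:**
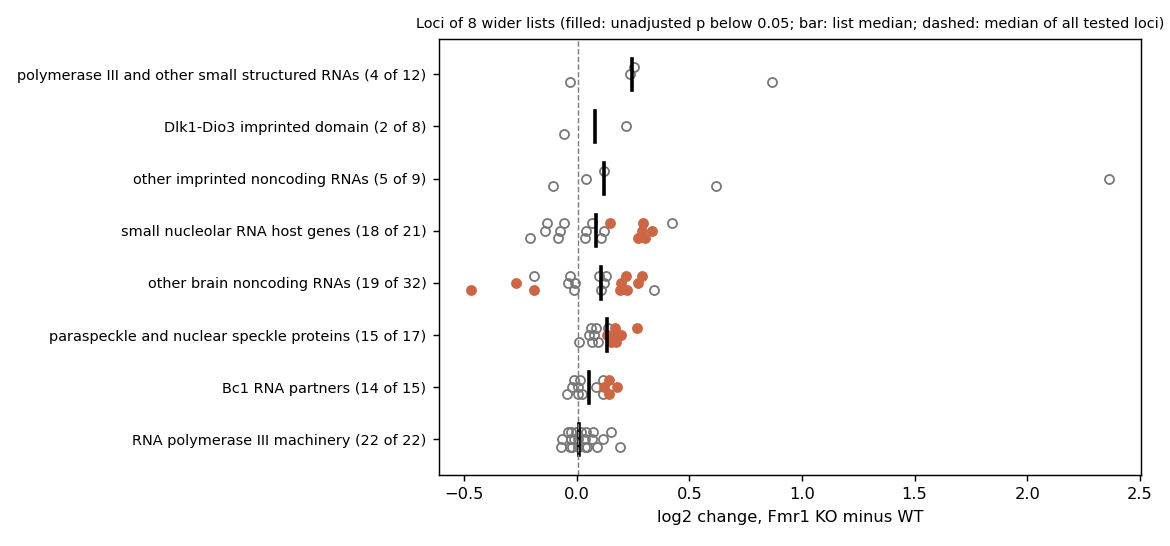
Log2 change, Fmr1 KO minus WT, of the tested loci of 8 lists (tested of listed in parentheses), with filled points for an unadjusted p below 0.05, bars for list medians and a dashed line at the median of all tested loci (0.005). The RNA polymerase III machinery sits tightly around the dashed line, and the 15 genes of paraspeckle and speckle proteins all lie above 0 (14 of 15 with FPKM scaled to the sum without Bc1).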

How the data were processed

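RNA was sequenced from 3 WT and 3 Fmr1 KO cultures. The authors trimmed the reads, aligned them to GRCm38 with TopHat2 and made the deposited FPKM values with Cufflinks and Cuffdiff (submitters' processing notes and methods); versions, gene annotation, library selection, strand, FPKM scaling and read numbers are not given in the sources consulted. Columns of the authors' own comparison (group values, fold changes, p and q values) were not used.

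The table held 48100 rows and 47086 loci, of which 20105 were at 0 throughout. Loci with a mean of at least 1 FPKM in either genotype (13195) were compared with limma 3.58.1 (R 4.3.3) on log2(FPKM + 0.1), with a mean-variance trend, two-sided, Benjamini-Hochberg adjustment over all of them and a threshold of 0.05. The fit was tested on simulated data, where it did not call changes as small as those of the 5 tested RNAs. For single values the difference in means was compared by exact permutation. FPKM carry no counting interval. Sequences came from GENCODE vM21 and RefSeq GRCm38.p6. Start positions were made 1-based.

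Named genes were the 9 RNAs, Fmr1, overlapping and nearest tested loci, the loci closest in pattern (that for Miat is not reported here), and of each list the calls, the 3 highest in mean FPKM and the extremes of log2 change; other named loci were chosen after their values were seen. The RNAs and lists were chosen with earlier results of these data known. Pseudocounts of 1 and 0.01, no minimum and a minimum of 5 FPKM, other scalings, no trend, a replicate block and leaving out each library were tried as alternatives.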

Additional observations from a re-analysis of the deposited data

How the results depend on the processing

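No alternative called any of the 5 tested RNAs at an adjusted p below 0.05, and Bc1, Mirg, Miat and Snhg11 kept a log2 change above 0 in all 14. Without single libraries the log2 change ranged from 0.11 (without WT replicate 3) to 0.33 for Mirg, from 0.13 to 0.26 for Miat and from 0.099 to 0.21 for Snhg11, and without WT replicate 3 the ratio of Fmr1 KO to WT for the share of the sum without Bc1 turned to 0.968 for Mirg and 0.983 for Snhg11. Malat1 reversed to 0.093 without WT replicate 1 and to 0.041 without Fmr1 KO replicate 2, and ranged from -0.12 to 0.093 when single libraries were left out. The number of the 9 RNAs with an unadjusted p below 0.05, 2 as reported, fell to 0 with no FPKM minimum, to 1 with libraries centred on their median, with FPKM scaled to the sum without Bc1 and with no trend (in the last 2 the RNA was Bc1, and neither Miat nor Snhg11 passed), was 3 with the replicate block (Mirg, Miat and Snhg11), and ranged from 0 to 2 without single libraries. Over the whole table, 35 loci were called after adjustment. This number was 15 with no FPKM minimum, 54 with a minimum of 5 FPKM, 91 with FPKM scaled to the sum without Bc1, 21 with no trend, 65 with the replicate block, and 15 to 18 when any 1 of the 6 libraries was left out. At an unadjusted p below 0.05, 1947 loci fell to 465 with FPKM scaled to the sum without Bc1.

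In that scaled fit the spread of every locus was set to the trend (for Bc1 an SD of 0.0844 against 0.173 of its own), which gave Bc1 an unadjusted p of 0.00294 although its groups overlap on that scale. It also gave 1 call among the other imprinted noncoding RNAs, Peg3os (log2 change 2.39), whose own SD was 2.12 against a trend value of 0.287. With no FPKM minimum the trend gave Bc1 an SD of 58.3, and its p is void there. The ratio of Fmr1 KO to WT for the share of Meg3 was 0.598, and it ranged from 0.45 to 1.57, the latter without WT replicate 1, which held 4 of the Meg3 steps on chromosome 12. For the share of Bc1 against the sum of other loci the ratio ranged from 1.08 to 1.22 without single libraries and was 1.15 with either sum.

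Same-numbered libraries of both genotypes had correlations of their deviations of 0.243, 0.0577 and 0.0801. Replicate 1 of either genotype had -0.152 to -0.119 with the other numbers of the other genotype, so the replicates 1 resembled each other. Replicates 2 and 3 did not pair by number, with 0.0658 and 0.0781 between different numbers. The labels give no pairing or batch, so the main fit had no block, and whether the replicates 1 share a batch was not tested. With the replicate number as a block, the adjusted p was 0.0828 for Miat, 0.163 for Snhg11, 0.183 for Mirg, 0.677 for Bc1 and 0.939 for Malat1, and the block changed no call among them. FPKM limit what can be said of low loci: Meg3, Rian, Neat1 and Rmst lay below the minimum, and a listed 0 may be a failed estimate.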
